A study of Mus musculus with 6 samples.

Results

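A set of 9 genes that act as transcription regulators late in male meiosis and during spermiogenesis (Crem, Fhl5, Rfx2, Rfx4, Tbpl1, Taf7l, Mybl1, Tcfl5 and Sox30) was followed in the testis of mice that lack Prss55, a serine protease of the testis. Every probe that carried 1 of the 9 names was taken, which gave 22 of the 41174 probes on the array. Transcripts in whole testis were measured on 6 single-colour arrays, each holding the RNA of 1 mouse, for 3 Prss55-/- and 3 wt mice. Both groups were males of a mixed 129Sv/C57BL/6 background, aged 6 to 8 weeks. The Prss55-/- mice carried a disruption of the gene made by homologous recombination, which every cell of the animal inherits, and came from crosses of heterozygotes. The comparison asks which testis transcripts differ when Prss55 is missing.

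Spermatogenesis runs through mitotic spermatogonia, meiotic spermatocytes, round spermatids and elongating spermatids, and each step has its own regulators. MYBL1 (A-MYB) switches on genes of the pachytene spermatocyte, among them those of the piRNA pathway, and SOX30, RFX2 and CREM then drive the genes of the round spermatid. CREM in the testis works with the LIM-domain partner FHL5 (ACT), while TBPL1 (TRF2) and TAF7L are relatives of general transcription factors, TBP and TAF7. In whole testis, fewer cells of a type and less RNA per cell cannot be told apart.

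Each value rests on a 60-base probe, and 8 of the 22, from 7 of the genes, are shown to give what was hybridised. The other probes in the text, those of Crem and Rfx2 among them, are named without their bases. The positions are those of the array annotation on mm9. Each sequence reads in the direction of the mRNA, and no base is set apart by capitals, since the whole probe hybridises. The Rfx4 and Tcfl5 probes span 458 and 12599 bp of the genome, more than their own length, so that they cross from one exon to another.
Fhl5 A_52_P158321 (chr4:25138358-25138417, minus strand): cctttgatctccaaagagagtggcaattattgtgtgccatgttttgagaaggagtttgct
Rfx4 A_52_P476877 (chr10:84331133-84331590, plus strand): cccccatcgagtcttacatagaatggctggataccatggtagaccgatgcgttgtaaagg
Tbpl1 A_51_P422636 (chr10:22431755-22431814, minus strand): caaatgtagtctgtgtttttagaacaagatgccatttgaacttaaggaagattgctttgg
Taf7l A_51_P405007 (chrX:131000450-131000509, minus strand): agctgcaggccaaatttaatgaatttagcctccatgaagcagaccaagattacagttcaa
Mybl1 A_52_P589622 (chr1:9661738-9661797, minus strand): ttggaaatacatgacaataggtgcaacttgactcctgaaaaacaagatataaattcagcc
Mybl1 A_51_P180761 (chr1:9666066-9666125, minus strand): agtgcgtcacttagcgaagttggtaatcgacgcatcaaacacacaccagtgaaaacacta
Tcfl5 A_52_P299713 (chr2:180357383-180369981, minus strand): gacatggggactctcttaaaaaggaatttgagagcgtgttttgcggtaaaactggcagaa
Sox30 A_51_P520519 (chr11:45830544-45830603, plus strand): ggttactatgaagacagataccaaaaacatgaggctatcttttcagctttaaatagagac
Over all 22 probes, 21 to 32 of the 60 bases were G or C. A Crem probe (A_52_P367026, across 3805 bp) and an Fhl5 probe (A_51_P465843, across 27980 bp) also crossed between exons.

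Signals are given as log2 of the array's processed signal after quantile normalization, and a difference is the Prss55-/- mean minus the wt mean. All 22 probes stood well above background on all 6 arrays and none was saturated. The Prss55 probe itself read 14.99 in Prss55-/- and 15.89 in wt on the log2 scale, 53.6% of wt (difference −0.90, SE 0.080, limma adjusted p = 0.0100), and its place relative to the disrupted exons is not given in the sources used here. The paper reported that Prss55 was absent from these mutants, as RNA by RT-PCR and as protein by Western blot and immunofluorescence. The 3 Prss55-/- arrays shared 1 slide and the wt arrays lay on the other 2, so slide and genotype cannot be told apart.

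None of the 9 regulators differed between the genotypes past the limma adjusted p of 0.05, at any of their 22 probes. Over the whole array, 1.21% of the 28606 tested probes passed. The differences ran from −0.19 to 0.18, or 0.877-fold to 1.13-fold, with SEs of 0.045 to 0.082, and 11 probes were higher and 11 lower. The adjusted p of the members ranged from 0.119 to 0.951. Each probe's own 95% interval lay within −0.35 and 0.29, which is 0.785-fold to 1.22-fold, so no interval reached a 2-fold difference in either direction. The median difference was 0.0037 for the members and 0.0019 for all tested probes.

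**Figure D1:**
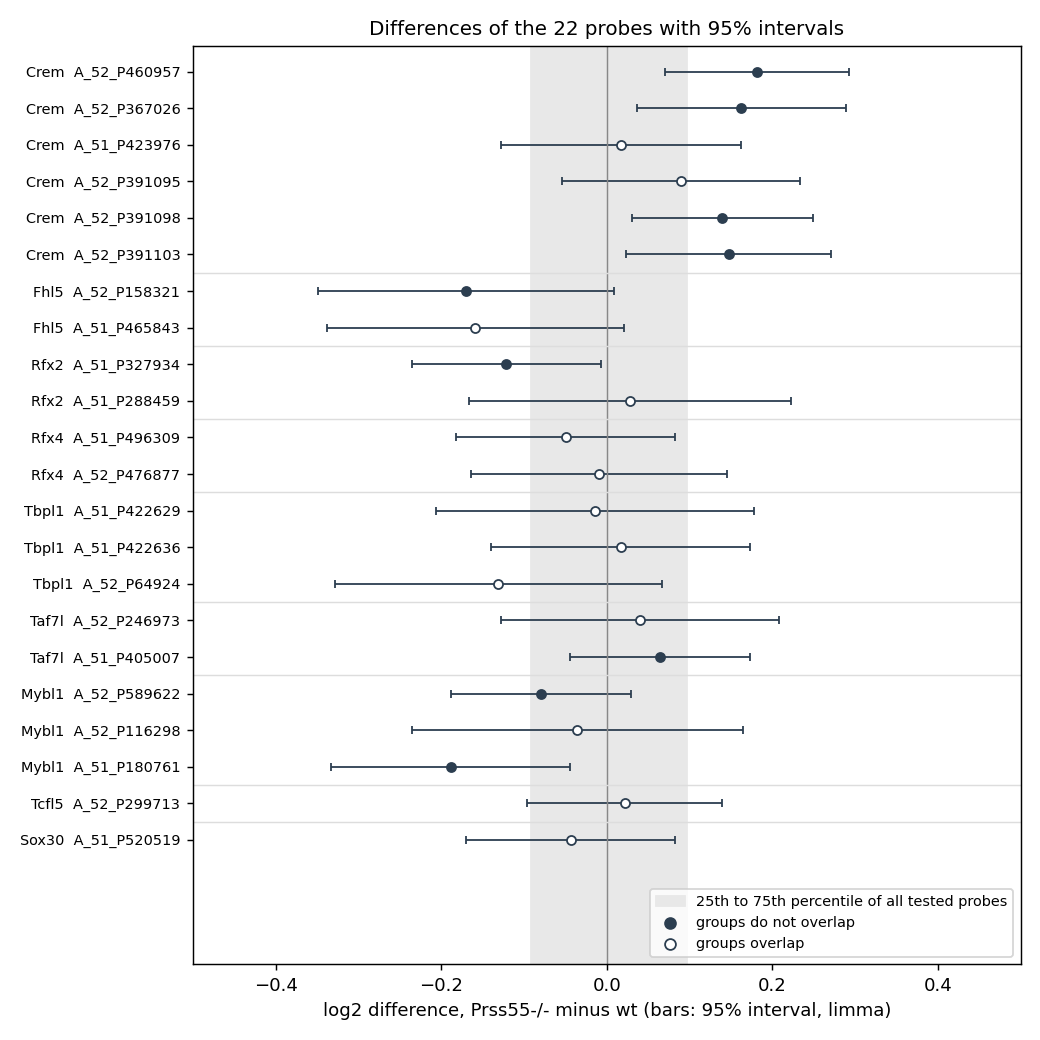
Log2 difference (Prss55-/- minus wt, horizontal axis) of the 22 probes, 1 row a probe, with 95% intervals from limma. Filled circles mark the 9 probes whose 3 Prss55-/- and 3 wt values do not overlap, and the grey band spans the 25th to 75th percentile of all tested probes, −0.09 to 0.10. The Crem probes lie right of 0 and the Fhl5 and Mybl1 probes left of it, all within −0.35 and 0.29 with their intervals.

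At an unadjusted limma p below 0.05, 6 of the 22 probes passed, where 19.1% of all tested probes did. They were 4 Crem probes, all higher in Prss55-/- (9.82% of all probes passed in that direction), and 1 probe each of Rfx2 and Mybl1, both lower (9.29% of all probes). The 4 Crem probes read 1 gene in the same mice and do not count as 4 separate results. With normexp background correction, 0 of the 22 passed, where 16.1% of all tested probes did. No member joined that p to a 2-fold difference, as 0.608% of all probes did. The genotypes did not overlap at 9 of the 22 probes, from 5 of the 9 genes, where 26.3% of all tested probes showed no overlap. Members also varied little between mice. Their median pooled SD was 0.065, against 0.092 over all tested probes, and their median absolute difference was 0.072, against 0.095.

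**Figure D2:**
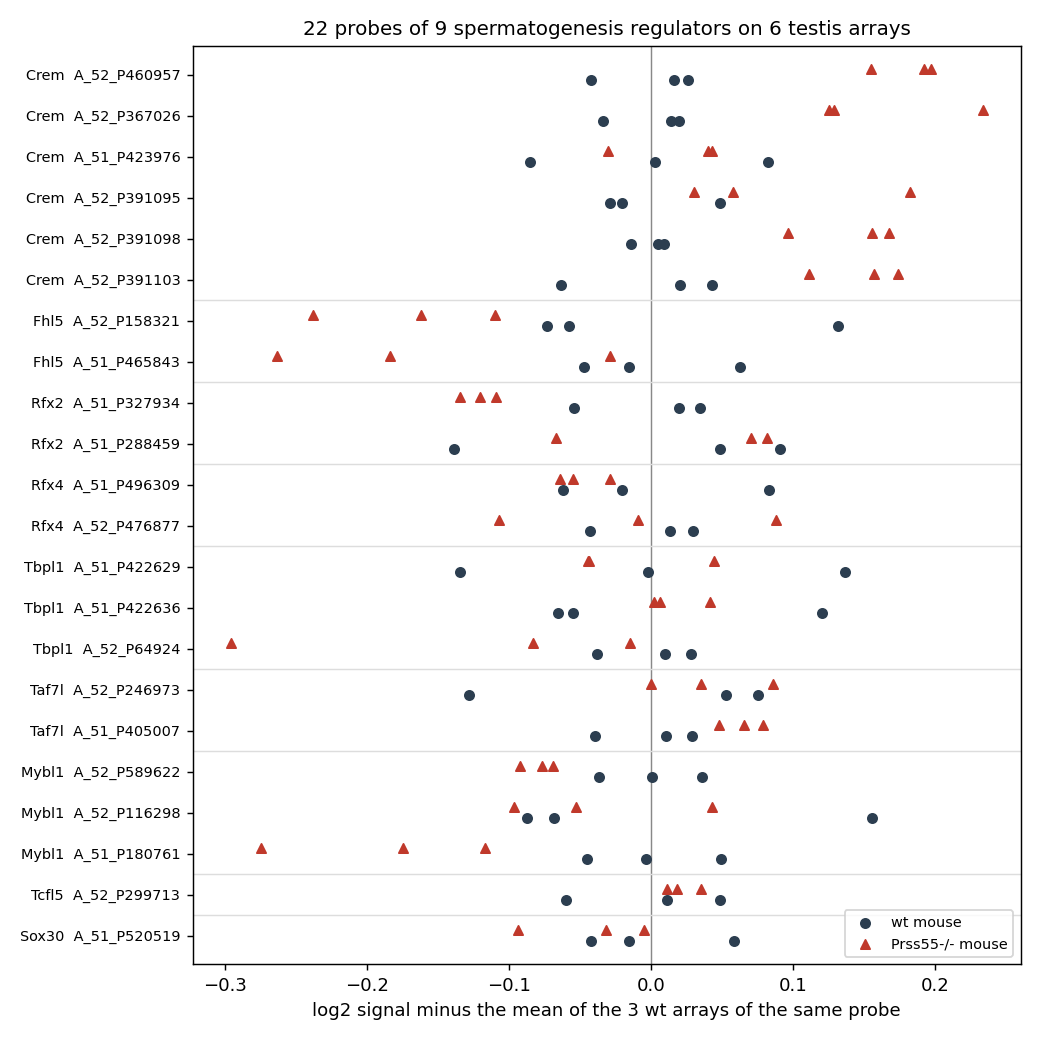
Log2 signal of each probe on each array, minus the mean of the 3 wt arrays of the same probe (horizontal axis), with circles for wt mice and triangles for Prss55-/- mice. The triangles of 4 Crem probes and 1 Taf7l probe lie to the right of all their circles, those of 1 Fhl5, 1 Rfx2 and 2 Mybl1 probes lie to the left, and the other rows mix.

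Crem encodes the cAMP-responsive factor that activates many genes of the round spermatid, and its transcript is spliced into activator and repressor forms. All 6 Crem probes were higher in Prss55-/-, by 0.02 to 0.18. Probe A_52_P460957 (chr18:3267671-3267730, mm9) read 15.05, 15.09 and 15.09 in the Prss55-/- mice and 14.85, 14.91 and 14.92 in the wt mice. Every Prss55-/- mouse lay above every wt mouse, by a difference of 0.18 (SE 0.046, 1.13-fold, unadjusted p = 0.0070, limma adjusted p = 0.119). Probe A_52_P367026, which crosses between exons, read 12.96, 12.96 and 13.07 against 12.80, 12.85 and 12.85, again with no overlap (difference 0.16, SE 0.052, limma adjusted p = 0.177).

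Another pair of Crem probes, A_52_P391098 and A_52_P391103, overlap in position (starting at 3267937 and 3267987 on chromosome 18) and so are not separate measurements of the gene. The other Crem probes are not independent either, since all 6 read the same RNA of the same 6 mice. All but A_52_P367026 lie between 3267049 and 3268046. The overlapping pair was higher by 0.14 and 0.15 with no overlap between the genotypes, and the second difference was 0.08 with normexp. Probe A_52_P391095 was higher by 0.09, but its lowest Prss55-/- value, 9.46, lay below the highest wt value, 9.47, and without Prss55-/- replicate 2 the difference was 0.04. The probe with the lowest position on this minus-strand gene, A_51_P423976 (chr18:3267049-3267108), read 11.31, 11.38 and 11.38 in Prss55-/- and 11.34, 11.42 and 11.26 in wt. Here the mice were mixed, and the difference was 0.02 with a 95% interval from −0.13 to 0.16.

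The Crem probes were therefore set against each other within each array. The log2 ratio of A_51_P423976 to A_52_P460957 ran from −3.74 to −3.71 in Prss55-/- and from −3.67 to −3.49 in wt, lower by 0.16 in Prss55-/-. The exact permutation p was 0.1 (two-sided), the smallest that 3 against 3 arrays can give, and 0.52 after Benjamini-Hochberg adjustment over the 13 such ratios of the 7 genes with more than 1 probe. It was the only 1 of the 13 ratios whose genotypes did not overlap.

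Fhl5 encodes the LIM-only coactivator that binds CREM in spermatids, and both of its probes were lower in Prss55-/-, opposite to Crem. Probe A_52_P158321 read 14.37, 14.42 and 14.29 in Prss55-/- and 14.47, 14.46 and 14.66 in wt. The genotypes did not overlap, though the highest Prss55-/- mouse lay close to the lowest wt mouse (difference −0.17, SE 0.074, unadjusted p = 0.059, limma adjusted p = 0.281). Without wt replicate 3, the highest of the wt mice, the difference was −0.10. Probe A_51_P465843 read 13.70, 13.55 and 13.47 against 13.68, 13.71 and 13.79, with Prss55-/- replicate 1 above wt replicate 1 (difference −0.16, limma adjusted p = 0.309). Since neither gene passed the adjusted test, the opposite signs are given as values only.

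Other genes of the CREM pathway gave 0 of 7 genes past the adjusted p. An unadjusted p was passed by 0 of 7, where 20% of all genes tested passed it, and the median difference was 0.08. Kif17, a kinesin that moves FHL5 out of the spermatid nucleus, had the widest spread: 11.21, 10.59 and 10.59 in Prss55-/- and 10.14, 10.39 and 10.74 in wt (difference 0.37, limma adjusted p = 0.413). Its genotypes overlapped. Camk4, a calcium-dependent kinase, differed by 0.12, and Ppp1cc, the phosphatase whose testis form spermatids need, by −0.08.

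The spermatid genes of the kind CREM activates were measured too, 14 of 14 on the array. None passed the adjusted p, and 1 of 14 passed an unadjusted p, where 20% of all genes tested did. This was Tnp2, which encodes a transition protein that replaces histones. Tnp2 read 17.87, 17.83 and 17.86 in Prss55-/- and 17.98, 18.07 and 18.12 in wt, without overlap (difference −0.20, limma adjusted p = 0.125). Its partner Tnp1 differed by −0.01 and Gapdhs, the sperm form of a glycolytic enzyme, by 0.11, with overlap in each. Quantile normalization gives every array the same top values, which the brightest genes, Tnp1, Prm1 and Prm2, share. The value 18.92 was that of Tnp1 in Prss55-/- replicate 1 and wt replicate 2, and of Prm2 in Prss55-/- replicate 3. A change that left the ranks of these genes in place would not show, so their small differences are partly set by the method. The list's median difference was −0.02.

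Markers of round spermatids stood higher in the Prss55-/- arrays, as Crem did. All 8 listed genes were detected on all 6 arrays, and their summed normalized signal, on the linear scale, ran from 255954 to 277533 in Prss55-/- and from 241707 to 255312 in wt, with no overlap. None of the 8 passed the adjusted p, and 4 of 8 were higher at an unadjusted p (median difference 0.12), where 1885 of all 19181 genes were. Leydig cell markers, of the steroid-making cells outside the tubules, were lower in Prss55-/-: 6 of 6 detected genes, 0 past the adjusted p and 3 past an unadjusted p (median −0.59), where 1951 of all 19181 genes were lower past that p, with sums of 33020 to 52272 against 52486 to 60449. Among the Leydig genes only Hsd3b1 was without overlap between the genotypes. Prss55-/- replicate 1 read 12.75 for Cyp11a1, within the wt range of 12.59 to 12.89. For Star it read 12.68, above every wt mouse (11.42 to 12.34). The part of either cell type in the members' values was not tested.

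RFX2 and RFX4 belong to the winged-helix family that binds the X-box of ciliary genes, and RFX2 is needed to build the sperm flagellum. Rfx2 probe A_51_P327934 (chr17:56915749-56915808, mm9) read 12.32, 12.34 and 12.31 in Prss55-/- and 12.46, 12.48 and 12.39 in wt. All Prss55-/- mice lay below all wt mice and within a narrow range (difference −0.12, SE 0.047, unadjusted p = 0.040, limma adjusted p = 0.239). With normexp this difference was −0.08. The other Rfx2 probe, A_51_P288459, read 11.23, 11.38 and 11.37 against 11.35, 11.39 and 11.16, a difference of 0.03 with overlap. The 2 probes thus gave opposite signs, but the ratio between them overlapped between the genotypes (exact permutation p = 0.2).

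Rfx4, which has a testis form beside its brain form, read 11.45, 11.49 and 11.46 in Prss55-/- and 11.60, 11.50 and 11.46 in wt at A_51_P496309 (chr10:84368464-84368523, mm9). The genotypes overlapped (difference −0.05, 95% interval −0.18 to 0.08, and −0.0080 without wt replicate 1). Its exon-crossing probe A_52_P476877 differed by −0.01, and the Prss55-/- mice spanned the wt mice on both sides.

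Ciliary and axonemal genes, the class on which RFX factors act, were all 20 on the array and tested. None passed the adjusted p, and 4 of 20 were higher at an unadjusted p with 0 lower, beside 20% of the 19181 genes tested passing in either direction. Foxj1, a regulator of motile cilia, read 12.85, 12.64 and 12.61 in Prss55-/- and 12.29, 12.54 and 12.30 in wt (difference 0.32, limma adjusted p = 0.161). Tekt4, a filament protein of the flagellum, differed by 0.27 (limma adjusted p = 0.149), and the transport subunits Ift81 and Ift88 by 0.16 and 0.15. In all 4 the Prss55-/- mean was higher, and the median of the list was 0.03. Rfx2 itself was lower at A_51_P327934 (−0.12) and higher at A_51_P288459 (0.03). None of these passed the adjusted p, and the signs are given as values only. Tekt1, another tektin, differed by 0.07.

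TBPL1 takes the place of the TATA-binding protein at some promoters of spermatids, and TAF7L is the X-linked germ-cell relative of the TFIID subunit TAF7. Tbpl1 probe A_51_P422629 (chr10:22425312-22425371, mm9) read 16.48, 16.48 and 16.57 in Prss55-/- and 16.52, 16.66 and 16.39 in wt. The wt mice spanned the Prss55-/- mice on both sides, and the difference was −0.01 (0.03 when arrays were scaled on the 75th percentile). Probe A_51_P422636 differed by 0.02, and A_52_P64924 by −0.13 with a 95% interval from −0.33 to 0.07, with overlap at both. The latter difference was −0.03 with normexp, −0.07 with 75th percentile scaling and −0.05 without Prss55-/- replicate 3.

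Taf7l probe A_51_P405007 read 10.64, 10.67 and 10.66 in Prss55-/- and 10.56, 10.61 and 10.62 in wt. Every Prss55-/- mouse was above every wt mouse, by a difference of 0.06 (SE 0.045, limma adjusted p = 0.478, and 0.11 with normexp). At the other probe, A_52_P246973, the genotypes overlapped and the difference was 0.04. Over all genes tested, 20% passed an unadjusted p. Of the 10 genes of the core transcription machinery around these factors, 0 passed an adjusted or an unadjusted p (median 0.04). Taf4b, a germ-cell TFIID subunit, had the largest difference, 0.24 (limma adjusted p = 0.424), followed by Taf3 at 0.13. Gtf2a1l, the germ-cell TFIIA subunit, differed by 0.04.

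Mybl1 encodes A-MYB. At A_52_P589622 it read 10.23, 10.25 and 10.24 in Prss55-/- and 10.28, 10.36 and 10.32 in wt, without overlap but by a small difference of −0.08 (SE 0.045, limma adjusted p = 0.384). Another Mybl1 probe, A_51_P180761, read 6.02, 5.96 and 5.86 against 6.13, 6.09 and 6.19. It too showed no overlap and had the largest absolute difference of the 22 probes, −0.19 (SE 0.059, unadjusted p = 0.019, limma adjusted p = 0.175). That difference was −0.04 with normexp background correction and −0.11 with 75th percentile scaling. The third Mybl1 probe, A_52_P116298, differed by −0.04 with overlap.

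The piRNA pathway and spermatocyte genes, the class A-MYB acts on, gave 0 of 15 past the adjusted p. At an unadjusted p 2 of 15 were higher and 0 lower, where 1885 and 1951 of all 19181 genes were. The median of the list was 0.01. Piwil2, which encodes a piRNA-binding Piwi protein, read 11.75, 11.73 and 11.69 in Prss55-/- and 11.46, 11.32 and 11.59 in wt, without overlap (difference 0.27, limma adjusted p = 0.146). Asz1, a protein of the germ granule, differed by 0.16 (limma adjusted p = 0.175). Pld6, which helps cut piRNA precursors, differed by −0.17 (limma adjusted p = 0.337), and Ybx2, the germ-cell mRNA-binding protein, differed by −0.09.

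Tcfl5 encodes a basic helix-loop-helix factor of spermatocytes and spermatids. Its exon-crossing probe read 14.32, 14.33 and 14.34 in Prss55-/- and 14.32, 14.36 and 14.25 in wt (difference 0.02, 95% interval −0.10 to 0.14). The Prss55-/- mice lay inside the range of the wt mice. Genes of the meiotic divisions gave 0 of 12 past the adjusted p. Past an unadjusted p 1 of 12 was higher and 1 lower, where 1885 and 1951 of all 19181 genes were. Cdc25c, a phosphatase that activates the division kinase, differed by 0.26 (limma adjusted p = 0.206), and Aurkc, the meiotic Aurora kinase, by −0.21 (limma adjusted p = 0.119), while Hspa2, the chaperone spermatocytes need, differed by −0.04.

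Sox30, an HMG-box factor that starts the round spermatid programme, had 1 probe. It read 12.85, 12.94 and 12.91 in Prss55-/- and 12.93, 12.90 and 13.00 in wt. The genotypes overlapped (difference −0.04, 95% interval −0.17 to 0.08, limma adjusted p = 0.687), and the difference was −0.01 without wt replicate 3 and −0.02 without Prss55-/- replicate 1.

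**Figure D3:**
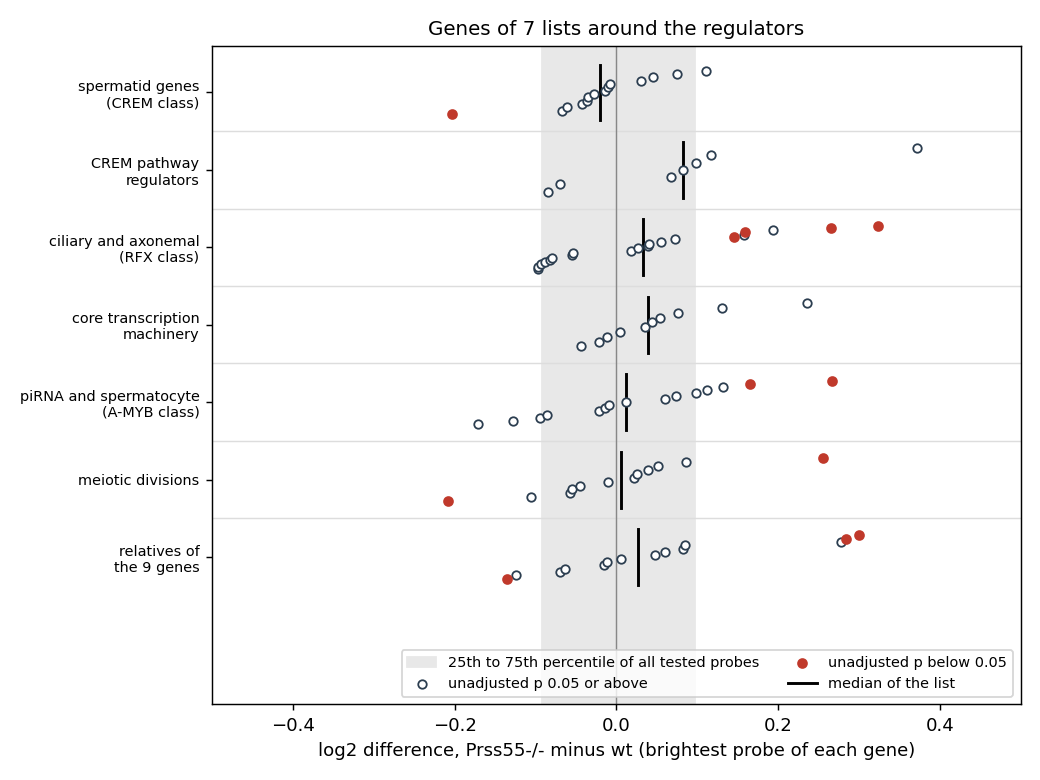
Log2 difference (Prss55-/- minus wt, horizontal axis) of each tested gene of 7 lists around the 9 regulators, by its brightest probe. Red points have an unadjusted limma p below 0.05, none has an adjusted p below 0.05, black bars mark the medians of the lists (−0.02 to 0.08), and the grey band spans the 25th to 75th percentile of all tested probes.

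Relatives of the 9 genes from the same families gave 0 of 14 tested past the adjusted p, 2 of 14 higher and 1 lower past an unadjusted p. Mybl2, the B-MYB factor of dividing cells, read 10.87, 10.97 and 10.99 in Prss55-/- and 10.58, 10.77 and 10.58 in wt (difference 0.30, limma adjusted p = 0.108), without overlap. Taf7, the relative of Taf7l, differed by 0.28 (limma adjusted p = 0.201) and Fhl1 by −0.14, while Fhl4 differed by 0.09. Myb and Tbpl2 were not well above background on all arrays of either genotype. Over the 7 lists together, 92 of 94 genes were tested. Of these, 0 passed the adjusted p, and 9 were higher and 3 lower past an unadjusted p, 13% of the 92 where 20% of all genes tested did. Of all 19181 genes, 117 were higher and 150 lower past the adjusted p.

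Because no member passed the adjusted test, likeness of pattern was measured for Crem, whose brightest probe had the largest absolute difference among the brightest probes of the 9 genes. With every probe centred on its own mean, the genes nearest to it over the 6 arrays, among 100 others of the lists and the 9 genes, were Asz1, Ift81 and Taf3. Their root mean square distances were 0.036, 0.041 and 0.054 on the log2 scale, against a median of 0.115. Nearness to a probe whose genotypes do not overlap selects for genes of that pattern, which the 3 share.

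**Figure D4:**
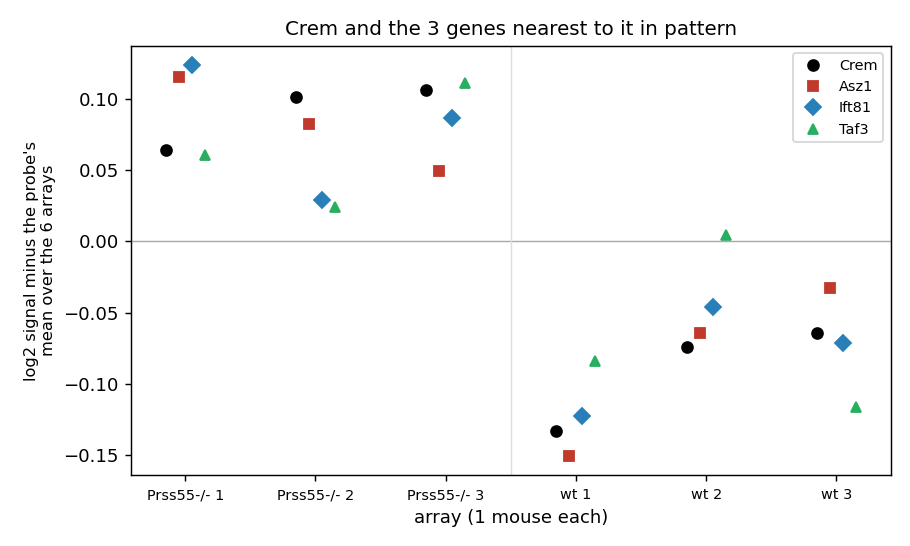
Log2 signal minus the probe's own mean over the 6 arrays (vertical axis) for Crem and the 3 genes nearest to it, on each array (horizontal axis, 1 mouse each). The 3 genes were chosen for lying close to Crem, and their points follow it from array to array at root mean square distances of 0.036 to 0.054.

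The start sites of these genes were searched for the letters of the binding sites, on both strands, in RefSeq's 300 bases around each start (250 before and 50 after, GRCm38.p6), which held 27025 genes. The cAMP response element TGACGTCA stood in 0 of 13 of the spermatid genes with an entry and in 2.03% of all genes. At so low a share, 0 of 13 cannot show that these genes lack the element. Only its full letters were searched, without shorter or variant forms. Among all genes of the 7 lists 1 held the element, Kif17, where it is shown in capitals, 86 to 79 bases before the start. The window also holds GTTGCC in lower case, without overlap with the element.
Kif17 (GRCm38.p6 chr4:138262149-138262188, plus strand): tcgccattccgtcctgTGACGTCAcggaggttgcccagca
The X-box core GTTGCC stood in 8 of 15 ciliary genes with an entry and in 14.1% of all genes. The 8 were Ift140, Ift172, Ift27, Ift88, Spag16, Spag6, Tekt1 and Tekt4. Their differences lay on both sides of 0, from −0.10 (Ift140) to 0.27 (Tekt4). The MYB motif GGCNGTT stood in 5 of 12 piRNA and spermatocyte genes, Piwil1 and Tdrd1 among them, and in 13.6% of all genes. Of the 9 regulators, 7 had an entry. Rfx2 held GTTGCC, Rfx2, Rfx4 and Tcfl5 held GGCNGTT, and none held TGACGTCA. A match describes the letters in the window and not a bound site.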

How the data were processed

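Testis RNA of 3 wt and 3 Prss55-/- mice had been labelled with 1 dye and hybridised to whole mouse genome arrays. The authors deposited each array's scanner output from Agilent Feature Extraction 10.7 (10.7.3.1 in the file headers), whose processed signal is an intensity corrected for background within the array. They also deposited a table of log2 values after quantile normalization, used here as an alternative. Here log2 of the intensity (floor 1) was quantile-normalized, outlier spots were left out, spots of a probe were averaged, and limma 3.58.1 in R 4.3.3 compared the genotypes, two-sided, at the 28606 probes that some genotype showed well above background on its 3 arrays, with Benjamini-Hochberg adjustment over all of them (tested on simulated data first). A gene of a list counted once, by its brightest tested probe. Their number, 3 arrays a genotype, limits the precision. The 9 genes and the lists were chosen with earlier results of these data known. Named from the lists were genes past the adjusted p, otherwise the 2 with the largest absolute difference and the gene of each list whose probe had the highest mean over the 6 arrays, and in addition Ift81, Ift88, Asz1 and Fhl1 for their unadjusted p, Taf3 for its likeness to Crem, and genes holding a motif. Old array names were matched through RefSeq synonyms. Likeness was measured over the 7 lists and the 9 genes. Probe positions are on mm9, and probe sequences come from the array files. Alternatives were another scaling (75th percentile), normexp (offset 50), other filters, the methods' t-test, the deposited table, slide as a random block, the replicate number as a block, and each array left out.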

Additional observations from a re-analysis of the deposited data

How the results depend on the processing

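No member probe and no gene of the 7 lists passed the adjusted p under any alternative tried, and the lowest adjusted p of a member over all of them was 0.113 by the methods' t-test (Crem A_52_P460957, whose difference ranged from 0.14 to 0.20). The count of member probes past an unadjusted p was 6, beside 19.1% of all tested probes. It was 4 with 75th percentile scaling (19.5% of all), 8 by the methods' t-test (17.2%) and 0 with normexp background correction (16.1%). With 1 array left out it was 2 to 5, beside 12.9% to 21.9% of all tested probes. It was 3 without Prss55-/- replicate 2 (14.3%) or wt replicate 1 (13.3%), and 2 without Prss55-/- replicate 3 (12.9%). Same-numbered arrays did not deviate together (correlations −0.054, −0.023 and −0.112). That cannot show whether the mice were paired, since a pairing need not shift the whole array. The paper speaks of 3 pairs of mice, and the labels do not say whether the replicate numbers follow them. With the replicate number as a block the member count was 2, beside 15% of all tested probes. Probes past the adjusted p over the array then numbered 13 in place of 346. That array-wide count was 87 by the methods' t-test, 140 with no filter on dim probes, and 855, 63, 38, 69, 127 and 377 with Prss55-/- replicates 1, 2 and 3 and wt replicates 1, 2 and 3 left out in turn. Differences near 0 changed sign, and larger moves of the others stand beside their values above. With normexp they were −0.013 for Crem A_51_P423976, 0.00070 for Rfx4 A_52_P476877, 0.0093 for Sox30 and −0.0039 for Tbpl1 A_51_P422636, and with 75th percentile scaling 0.028 for Tbpl1 A_51_P422629. With 1 array left out they ranged from −0.025 to 0.059 for Crem A_51_P423976, −0.041 to 0.076 for Rfx2 A_51_P288459, −0.058 to 0.039 for Rfx4 A_52_P476877, −0.024 to 0.078 for Taf7l A_52_P246973, −0.082 to 0.054 for Tbpl1 A_51_P422629, −0.016 to 0.077 for Tbpl1 A_51_P422636, −0.079 to 0.042 for Mybl1 A_52_P116298 and −0.0086 to 0.046 for Tcfl5. The cause was not tested.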

Other observations

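The other cell types of the testis were read from marker lists, each as the summed normalized signal of its genes on the array, on the linear scale. Spermatogonia (7 genes) ran from 30933 to 33099 in Prss55-/- and from 33238 to 35453 in wt, without overlap. A sum on the linear scale is weighted towards bright probes, and the median difference of these genes was −0.0017. Dmrt1 was the only 1 of the 7 past an unadjusted limma p of 0.05, where 20% of all genes tested passed. It differed by 0.35 towards Prss55-/- without overlap, and Gfra1 by 0.19 with overlap. Stra8 differed by −0.19 and Uchl1 by −0.08, both with overlap. None of the 7 passed the adjusted p. Spermatocytes (7 genes) ran from 167608 to 170044 and from 167698 to 179050, and elongating spermatids (7 genes) from 2088495 to 2206218 and from 2150761 to 2254027. Both of these overlapped between the genotypes. The elongating spermatid sum is weighted towards its brightest probes, Prm1, Prm2 and Tnp1 among them, whose values quantile normalization largely fixes. Sertoli cell sums ran from 128673 to 130819 in Prss55-/- and from 129118 to 137494 in wt, and Amh was not well above background on all arrays of either genotype. These sums are weighted towards Clu, the brightest of them. Of 7 tested Sertoli genes 0 passed the adjusted p, and the median difference was −0.03. Past an unadjusted p 1 was higher (Rhox5, 0.26) and 2 lower (Fshr, −0.27, and Inha, −0.19), all without overlap. Of all 19181 genes, 1885 were higher and 1951 lower past that p.

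Macrophage sums, weighted towards the brightest gene, Lyz2, ran from 12272 to 16134 in Prss55-/- and from 13077 to 17677 in wt. All 6 macrophage genes were lower in Prss55-/- (median −0.13), with 0 past the adjusted p. An unadjusted p was passed by 2 of 6, Cd163 (−0.40, without overlap) and Cd68 (−0.24, with overlap). Of all 19181 genes, 1951 were lower past that p. The sums of peritubular and vascular cells ran from 18981 to 22799 and from 22162 to 22415, and Pecam1 was well above background on no array. Blood genes ran from 18438 to 23015 in Prss55-/- and from 14185 to 35676 in wt. All 3 overlapped. Of 4 epididymis genes on the array none was well above background on any array, so RNA of that neighbouring tissue was not detectable with these probes. Zbtb16, Prm3, Insl3, Spink11 and Defb48 had no probe that could be matched by name. No marker gene of any list passed the limma adjusted p of 0.05, and the lowest was 0.065, for Dmc1, the meiotic recombinase (difference −0.29). Sycp1, also of the spermatocyte list, differed the other way, by 0.31 without overlap (limma adjusted p = 0.126). The median difference of that list was 0.01. Among Leydig genes Hsd3b1, a steroid dehydrogenase, read 14.09, 13.59 and 13.76 in Prss55-/- and 14.50, 14.46 and 14.47 in wt (difference −0.67, limma adjusted p = 0.072). Cyp17a1 differed by −0.38 with overlap. Dmc1, Sycp1, Hsd3b1 and the Sertoli and macrophage genes named above were chosen after their values were seen.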
